A study of Drosophila melanogaster with 3 samples.

Results

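Single first promoters are start sites that stand at the outer 5′ end of a protein-coding gene and are not paired back to back with the start site of a neighbour. The members described here are the reproducible ChIP-seq peaks of CG17186 whose summit lay at such a promoter in Drosophila melanogaster embryos. A peak was kept when its summit was within 500 bp of a coding transcription start site (TSS), when that TSS was at most 500 bp downstream of the outermost TSS of its gene, and when the summit was not within 500 bp of both TSSs of a divergent coding pair at most 1000 bp apart. The rule used positions only and no signal value. It kept 1374 of the 3814 reproducible peaks (36.0%), nearest to 1332 genes. Another 1235 peaks (32.4%) lay within 500 bp of both TSSs of a divergent pair and are called head-to-head peaks. Of these, 1001 (81.1%) had the summit upstream of the nearest TSS, so not all lay between the paired promoters. A further 281 peaks (7.37%) lay at internal alternative promoters, and 924 (24.2%) over 500 bp from any coding TSS. The label holds for the annotation used, with these exceptions: 46 members (3.35%) had the TSS of another coding gene within 500 bp, 29 (2.11%) were equally near to the TSSs of different genes, and 323 (23.5%) had a divergent partner whose farther TSS was over 500 and at most 1500 bp from the summit.

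The chromatin came from whole embryos collected over 0 to 14 hours, males and females together, so every cell type of the embryo and all stages in that span are averaged. All samples carried the same stable transgene, CG17186 with GFP at its C-terminus, and the fusion protein was recovered with an antibody against GFP after sonication to 200 to 800 bp. There was 1 group of 3 biological replicates, with no untagged or treated group among the files. The sources used here do not say which promoter drives the transgene or whether untagged protein was also present.

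CG17186 is known here only by its annotation symbol. A first promoter is where RNA polymerase II starts the longest transcripts of a gene, and in flies it is read by factors that recognise short DNA words near the TSS. DREF binds the DNA replication-related element (DRE), known from promoters of replication and growth genes, and the insulator protein BEAF-32 recognises an overlapping core. M1BP binds core promoter motif 1, which is common at housekeeping genes. Ribosomal protein genes start at a pyrimidine-rich initiator called TCT, whereas many regulated genes carry a TATA box or the initiator of focused promoters.

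Most of the strongest members held the word AACAGCAC within 50 bp of the summit, so the word is shown first. The 6 sequences below are from the strongest members with the word apart from RpL11 and PheRS-m, with 50 bases on either side of the summit. Each sequence is read 5′ to 3′ along the gene from the RefSeq genome, and capitals mark the word or its reverse complement, so the base at the centre is the summit. Spt20, part of the SAGA complex that acetylates histones, starts at 13502707. The centriole duplication gene asl starts at 5606543 and yps, a Y-box gene whose product binds RNA, at 12125150. RpL37-1, RpL35A and RpL24 encode proteins of the large ribosomal subunit, with start sites at 15139367, 5467101 and 13395131.
Spt20 (chr3L:13502611-13502711, dm6, plus strand): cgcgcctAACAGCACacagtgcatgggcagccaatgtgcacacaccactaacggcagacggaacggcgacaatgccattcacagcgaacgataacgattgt
asl (chr3R:5606551-5606651, dm6, minus strand): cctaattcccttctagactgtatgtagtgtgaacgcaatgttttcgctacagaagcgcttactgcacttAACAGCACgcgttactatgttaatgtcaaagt
yps (chr3L:12125150-12125250, dm6, minus strand): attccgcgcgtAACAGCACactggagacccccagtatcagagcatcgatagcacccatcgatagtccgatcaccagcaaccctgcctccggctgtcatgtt
RpL37-1 (chrX:15139671-15139771, dm6, minus strand): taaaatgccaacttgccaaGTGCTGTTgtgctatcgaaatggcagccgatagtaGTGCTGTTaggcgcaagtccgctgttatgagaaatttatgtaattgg
RpL35A (chr3R:5467122-5467222, dm6, minus strand): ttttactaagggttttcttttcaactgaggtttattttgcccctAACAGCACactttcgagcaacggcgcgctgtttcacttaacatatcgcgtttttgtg
RpL24 (chr2L:13395122-13395222, dm6, minus strand): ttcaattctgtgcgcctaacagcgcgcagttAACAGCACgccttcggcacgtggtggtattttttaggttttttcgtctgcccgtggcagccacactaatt
The word lay on the strand of the gene at Spt20, asl, yps, RpL35A and RpL24, and on the other strand, in 2 copies, at RpL37-1. It stood at a different distance from the centre in each.

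The DRE word TATCGATA, which is its own reverse complement, was present at 161 members. Examples from 4 of the strongest members that hold it are shown in the same way, with the word in capitals. CG15561 starts at 31215942. Karybeta3, an importin of the karyopherin beta family, starts at 4649354, ssp3, a gene needed for the mitotic spindle, at 18943960, and Top2, which encodes DNA topoisomerase II, at 19453490.
CG15561 (chr3R:31215907-31216007, dm6, minus strand): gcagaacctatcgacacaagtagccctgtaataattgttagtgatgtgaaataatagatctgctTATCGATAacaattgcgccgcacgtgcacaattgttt
Karybeta3 (chr3R:4649334-4649434, dm6, plus strand): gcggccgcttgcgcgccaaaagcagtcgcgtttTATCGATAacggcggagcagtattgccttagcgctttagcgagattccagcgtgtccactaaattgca
ssp3 (chr2L:18943943-18944043, dm6, minus strand): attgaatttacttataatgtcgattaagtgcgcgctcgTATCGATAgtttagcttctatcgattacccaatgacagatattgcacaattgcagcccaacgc
Top2 (chr2L:19453494-19453594, dm6, minus strand): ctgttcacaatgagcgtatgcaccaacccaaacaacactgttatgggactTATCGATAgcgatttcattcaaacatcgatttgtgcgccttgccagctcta

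Motif 1 was searched as GGTCACACT. Examples from 4 of the strongest members that hold it are shown with the word in capitals, because its direction along the gene is described below. They belong to jar, which encodes myosin VI (start site 24271233), Pp1alpha-96A, a catalytic subunit of protein phosphatase 1 (24518270), srl, the fly PGC-1 homologue (4429335), and CG9630 (8269896).
jar (chr3R:24271310-24271410, dm6, minus strand): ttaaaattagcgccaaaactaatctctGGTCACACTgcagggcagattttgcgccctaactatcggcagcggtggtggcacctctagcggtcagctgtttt
Pp1alpha-96A (chr3R:24518158-24518258, dm6, plus strand): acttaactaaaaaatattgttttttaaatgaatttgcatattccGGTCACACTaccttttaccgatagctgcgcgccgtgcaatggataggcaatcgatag
srl (chr3R:4429306-4429406, dm6, minus strand): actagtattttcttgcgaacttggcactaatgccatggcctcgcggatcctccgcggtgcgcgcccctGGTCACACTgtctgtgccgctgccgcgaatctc
CG9630 (chr3R:8269877-8269977, dm6, minus strand): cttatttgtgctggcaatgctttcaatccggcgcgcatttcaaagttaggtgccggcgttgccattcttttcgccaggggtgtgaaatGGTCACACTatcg
In all 4 the word ran in the direction of the gene.

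Signal is the value of the authors' peak caller for each peak, on a scale that the sources used here do not name. The pooled signal ranks the members below. To compare replicates, the signal of the strongest overlapping peak in each replicate was set against the median in that replicate over the 3758 reproducible peaks found in all 3, and this is called relative signal. The strongest overlapping peak can have its summit elsewhere in a wide interval: in 224 of 1352 members (16.6%) it was over 100 bp from the pooled summit in at least 1 replicate. Taking instead the overlapping peak with the nearest summit moved the mean relative signal of 24 members by over 1.5 times, and such values are given beside those it touches. The relaxed lists held 30000, 26139 and 30000 peaks in replicates 1, 2 and 3. Read counts are not part of these files, so the depth behind each peak is unknown and intervals on shares cover the number of peaks only. Tests were exact sign-flip permutation tests over the 3 replicates, two-sided, whose smallest possible p is 0.25, so none could pass 0.05. For shares of words at replicate summits, all replicates read the same genome sequence at the same peaks. The spread and the tests of those shares therefore cover only where each replicate placed the summit. The replicates are labelled as biological, and what separates them (collections, chromatin preparations or both) is not stated.

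Summits sat just upstream of the start site. Of the 1374 members, 1101 (80.1%, 95% interval 77.9 to 82.2%) had the summit upstream of the nearest TSS, 12 had it at the TSS and 261 (19.0%) downstream. The median offset was -46 bp, with quartiles of -104 and -10 bp. The summit was within 50 bp of the TSS in 624 members (45.4%) and within 100 bp in 949 (69.1%), and in 118 (8.59%) it was over 250 bp away. In 1263 members (91.9%) the nearest TSS was the outermost one of the gene. Read at each replicate's own summits, the median offset of the members was -49, -55 and -41 bp in replicates 1, 2 and 3 (mean -48.3 ± 7.02 bp, SD, n = 3), against -60, -62 and -52 bp for head-to-head peaks and -157, -154 and -136 bp for internal promoter peaks. Distance without direction gave mixed contrasts with head-to-head peaks. At the pooled summits the median distance was 56 bp for members, 57 bp for head-to-head peaks and 176 bp for internal promoter peaks. In replicates 1, 2 and 3 it was 58, 69 and 56 bp for members, against 70, 72 and 66 bp for head-to-head peaks. Within 50 bp there were 45.4% of members, 45.7% of head-to-head peaks and 17.4% of internal promoter peaks. Within 100 bp, 69.1% of members were below the 78.3% of head-to-head peaks. The rule defines the classes by distances to TSSs, so these contrasts of position are partly built in and were not tested.

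**Figure D1:**
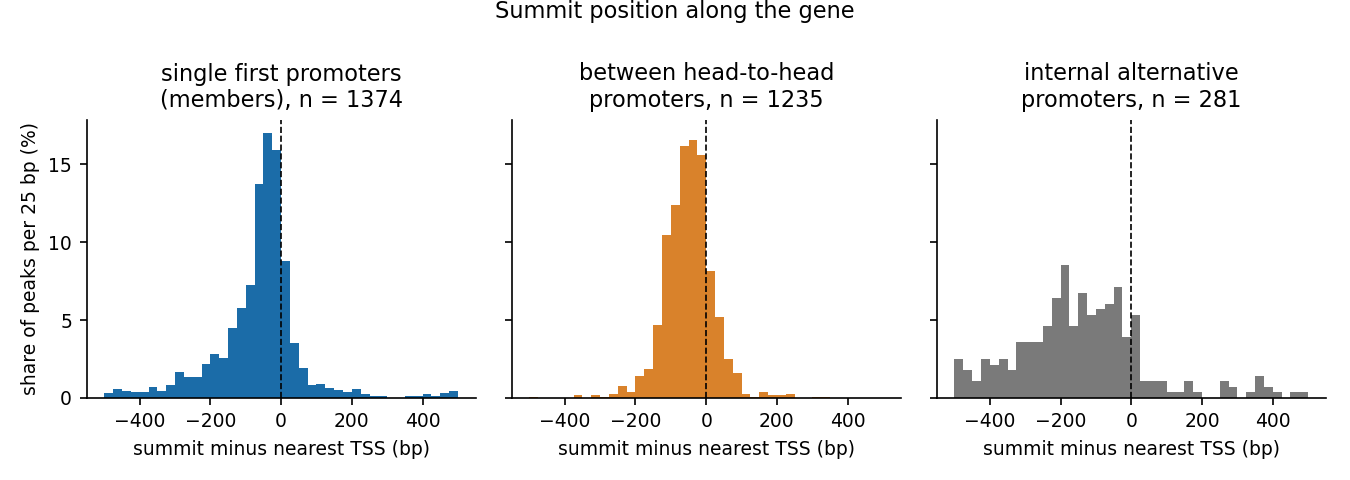
Share of peaks (%) per 25 bp of distance from summit to nearest TSS, in bp along the gene, for members (left), head-to-head peaks (middle) and internal promoter peaks (right). The members pile up just upstream of the TSS (dashed line) around their median of -46 bp, whereas internal promoter peaks spread further upstream.

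Members made up 13 of the 25 strongest reproducible peaks and 47 of the 100 strongest (95% interval 36.9 to 57.2%), against 36.0% of all reproducible peaks. Of all members, 3.42% (95% interval 2.52 to 4.52%) were among the 100 strongest, against 2.62% of all reproducible peaks, 3.00% of head-to-head peaks, 2.49% of internal promoter peaks and 0.974% of peaks away from a coding TSS. The interval of the members contains the value for all peaks. These shares are descriptions, with no test.

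The strongest member, and the strongest peak of the whole set, was at RpL11 on 2R (19441863 to 19442723, dm6), with a relative signal of 97.2, 101 and 102 in replicates 1, 2 and 3. The peak at PheRS-m, which encodes a mitochondrial phenylalanyl-tRNA synthetase (2R, 13967836 to 13968852), had 81.1, 66.9 and 82.5. Spt20 (3L, 13502347 to 13503136) had 71.7, 73.7 and 71.6, and betaCOP, a coat subunit of COPI vesicles (X, 18384953 to 18385652), had 66.7, 80.0 and 68.8. RpL11 stood above these in every replicate, whereas PheRS-m, Spt20 and betaCOP changed order between replicates.

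Next came asl (3R, 5606121 to 5607047), with 64.2, 60.7 and 57.2, and yps (3L, 12124737 to 12125571), with 56.8, 57.6 and 61.5, which overlapped each other. ND-B14.7, a subunit of respiratory complex I on 2R, had 49.1, 40.7 and 55.7 and was the most spread of these in absolute terms after PheRS-m. The summit at RpL37-1 lay 354 bp upstream of its TSS, the farthest among the 25 strongest members, with a relative signal of 39.8 ± 3.11 (SD, n = 3). At eEF1gamma, a subunit of translation elongation factor 1, it was 38.6 ± 1.27 with the summit 117 bp upstream. Vps53, of a Golgi tethering complex, had 37.2 ± 2.39. RpL35A had 34.5 ± 1.40, RpL24 33.0 ± 2.28 and CG11095 32.6 ± 1.03, which cannot be told apart within their spread.

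The remaining 12 of the 25 strongest had mean relative signals of 14.8 to 31.4. VhaAC39-1, a subunit of the vacuolar proton pump, had a relative signal of 31.4 ± 1.34, and lsn, a subunit of the ESCRT-II sorting complex, 28.5 ± 5.93. The nuclear protein gene crm had 27.5 ± 0.569, nop5, a core protein of box C/D small nucleolar RNPs, 27.0 ± 4.33 at its matched peaks, and LSm3, an Sm-like RNA-binding protein, 24.7 ± 1.14. The kinase gene fray had 24.5 ± 1.80, though CG7694 was equally near to that summit. CG44002 followed with 23.6 ± 1.34 and Gmppa, a GDP-mannose pyrophosphorylase subunit, with 22.3 ± 1.20. The matched peaks of nop5 and Gmppa had their summits 561 to 574 bp and 1115 to 1126 bp from the pooled summit. With the nearest replicate summits, nop5 had 20.6, 20.1 and 23.5 and Gmppa 23.5, 20.4 and 22.7 in replicates 1, 2 and 3. CG6927 had 18.4 ± 1.91, Pxt, a cyclooxygenase-like peroxidase, 16.4 ± 0.246, CG14618 14.9 ± 0.761 and CG12106 14.8 ± 1.00. All 25 were found among the strongest peaks of every replicate, and 22 of the 25 summits lay upstream of the TSS.

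**Figure D2:**
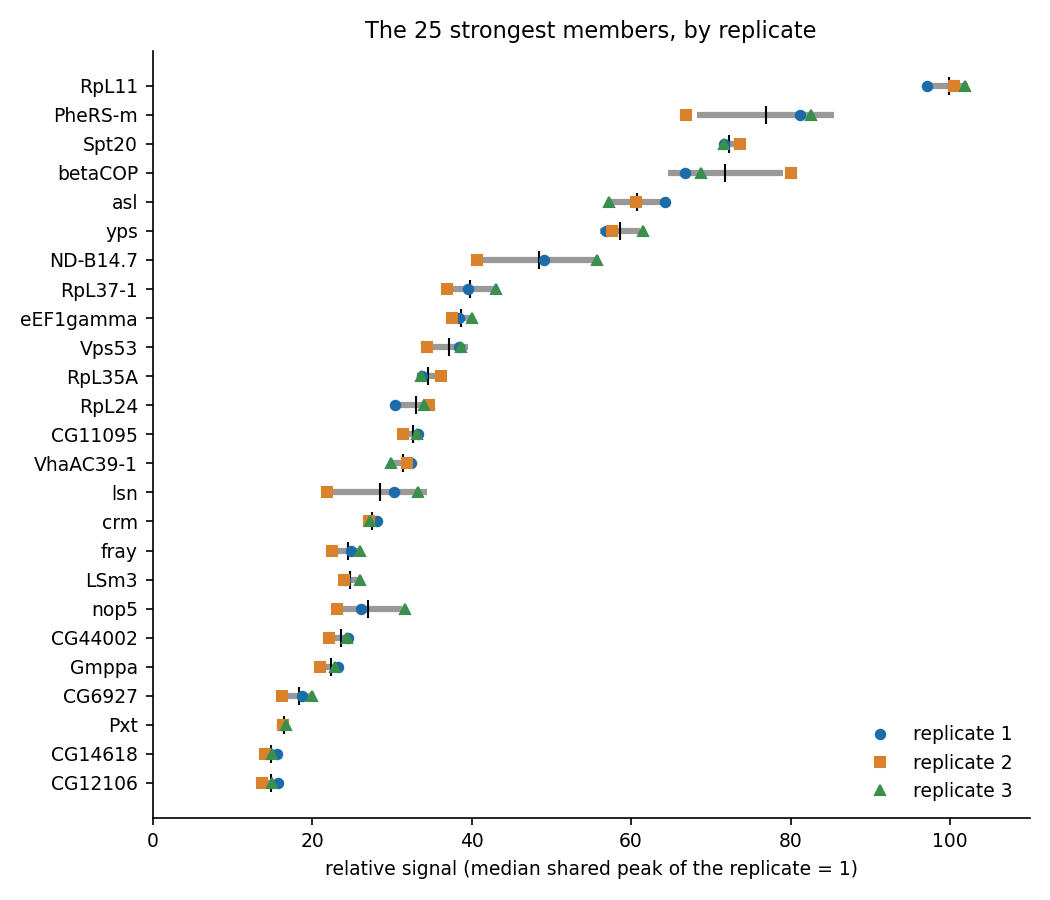
Relative signal (median shared peak of the replicate = 1) of the 25 strongest members, ordered by pooled signal. Points are the 3 replicates, ticks their mean and grey bars 1 SD. RpL11 stands apart at 97.2 to 102, and most members vary less between replicates than the range from Spt20 down to CG12106. The points of nop5 and Gmppa belong to a summit over 500 bp away in the same interval.

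Signal fell steeply down the list. The median pooled signal was 5782 for member ranks 1 to 25, 545 for ranks 26 to 100, 258 for ranks 101 to 500 and 143 for ranks 501 to 1374. The median over all members was 172, with quartiles of 134 and 242. The weakest members were Gp150 (109.35), CG17124 (109.337) and RhoGAP1A (109.332). Gp150 overlapped no peak of replicate 1, and 22 members in all were missing from at least 1 relaxed list. The deposited −log10 q-value ran only from 2.83 to 3.52 over the members and does not order the top of the list.

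Agreement between replicates followed strength. The median coefficient of variation of relative signal was 5.65% for ranks 1 to 25, 11.7% for ranks 26 to 100, 16.2% for ranks 101 to 500 and 23.7% for ranks 501 to 1374. The replicates' summits spanned a median of 7 bp at ranks 1 to 25, 20 bp at ranks 26 to 100, 34 bp at ranks 101 to 500 and 62 bp below. All 25 of the strongest had their 3 summits within 25 bp of each other, against 395 of the 1352 members (29.2%) found in every list. The matched peaks are the strongest overlapping ones, and with the nearest summits the median coefficients of variation were 5.68, 11.8, 16.2 and 24.7% in the same order of ranks. Spearman's rho of signal between replicate pairs, across members, which are not independent, was 0.710, 0.716 and 0.670. Among the 100 strongest members it was 0.920, 0.911 and 0.906.

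The least variable of the 100 strongest members were Pxt (1.50%), Spt20 (1.61%), crm (2.07%), RpL11 (2.43%) and CG30020 (2.84%). The most variable were CG11857 (28.6%), Atf3, a bZIP transcription factor gene (28.1%), N, which encodes the Notch receptor (25.4%), CG14613 (25.3%) and CG31145 (23.9%). Atf3 had a relative signal of 2.25, 3.75 and 2.53 in replicates 1, 2 and 3, and N had 2.43, 1.72 and 2.91, so replicate 2 was highest at Atf3 and lowest at N. Further down the list, Nup154, a nuclear pore gene next to RpL9, had 5.63, 7.27 and 0.345 by the strongest overlapping peak. In replicates 1 and 2 that peak had its summit 311 and 318 bp from the pooled summit. At the nearest summits Nup154 had 1.19, 0.884 and 0.355.

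Presence among the strongest peaks of every replicate was near the background. When each replicate list was cut to its own 3814 strongest peaks, 876 members (63.8%, 95% interval 61.2 to 66.3%) overlapped a peak in all 3, against 64.4% of all reproducible peaks. The share was 73.4% for head-to-head peaks, 62.6% for internal promoter peaks and 53.9% for peaks away from a coding TSS. It was 100% at member ranks 1 to 100, 99.0% at ranks 101 to 500 and 43.5% at ranks 501 to 1374. These overlaps are partly built in, because the reproducible set was derived from the same lists.

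The median relative signal of the members was 1.03, 0.993 and 1.04 in replicates 1, 2 and 3 (mean 1.02 ± 0.0241, SD, n = 3), against 1.07, 1.10 and 1.05 for head-to-head peaks (1.07 ± 0.0275). The difference was -0.0510 ± 0.0516 and was negative in 3 of 3 replicates (exact sign-flip permutation test, two-sided, p = 0.25). It was -0.0225 without replicate 2. With the nearest replicate summits it was -0.0246 (exact sign-flip permutation test, two-sided, p = 0.75). Among the stronger 50% of peaks it was -0.0207 (exact sign-flip permutation test, two-sided, p = 0.5). The difference was not negative in all 3 replicates under either of these last settings. Internal promoter peaks had a median of 0.981 ± 0.0182. The members were higher by 0.0392 ± 0.00591, in 3 of 3 replicates (exact sign-flip permutation test, two-sided, p = 0.25). Among the stronger 50% of peaks this difference was 0.00670 and was not positive in all 3 replicates (exact sign-flip permutation test, two-sided, p = 0.5). Over the members the quartiles of relative signal were 0.762 and 1.39.

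At each limit of the rule, the pooled signals of the nearest peaks inside and outside overlapped in range. So few peaks cannot show whether signal changes at a limit. The members farthest from a TSS were CG11151 (496 bp, pooled signal 143), dom (493 bp, 123) and CG3505 (492 bp, 127), and the nearest peaks left out were CG8128 (502 bp, 247), CG42571 (504 bp, 140) and prtp (504 bp, 135). At the limit on the outermost TSS, isoQC (496 bp, 164), Sik3 (490 bp, 156) and mura (468 bp, 134) were kept, and Mapmodulin (501 bp, 110), zip (502 bp, 135) and Past1 (509 bp, 167) were not. At the limit on divergent pairs, tank (501 bp to the farther TSS, 545), Zif (501 bp, 142) and hang (502 bp, 179) were kept, and crp, HisRS and Fpgs1, each at 500 bp, were not (221, 214 and 120).

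The word AACAGCAC was concentrated at the top of the list. It was searched on both strands within 50 bp of the summit, a window of 101 bases. It was present at 18 of the 25 strongest members (72.0%, 95% interval 50.6 to 87.9%), 4 of ranks 26 to 50 (16.0%), 1 of ranks 51 to 100, 0 of ranks 101 to 200 and 14 of the remaining 1174. Over all members it was present at 37 (2.69%, 95% interval 1.90 to 3.69%), against 1.97% of all reproducible peaks. In the flanking windows 300 bp to either side it was present in 0.437% on average. The word had been found in earlier results on these peaks, so its place at the top of the list is a description. The sequences of Spt20, asl, yps, RpL37-1, RpL35A and RpL24 printed above show it.

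Members with the word had a median relative signal of 15.6, 14.5 and 14.9 in replicates 1, 2 and 3 (36 members found in all 3), against 1.02, 0.986 and 1.03 for the 1316 members without it. The difference was 14.0 ± 0.524, a description with no test, because the word was found on the strongest of these peaks. It depends on the window: with the word sought within 100 bp it was present at 3.49% of members and the difference was 1.63. At each replicate's own summits the word was present at 2.64 ± 0.0854% of members and in 0.370 ± 0.0978% of flanking windows (n = 3). That difference was 2.27 ± 0.0770 percentage points, in 3 of 3 replicates. It is also a description with no test, because the word was found at summits of these same peaks.

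Members and head-to-head peaks held the word about equally. At replicate summits it was present at 2.64 ± 0.0854% of members and 2.80 ± 0.125% of head-to-head peaks, a difference of -0.162 ± 0.0520 points. This is a description with no test, because the word was found on these same peaks. The sign of this difference turned when the promoter distance was set to 250 bp (0.392 points) or the head-to-head limit to 500 bp (0.105 points). Internal promoter peaks held the word at 0.483 ± 0.209%.

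Of the 7 members among the 25 strongest without the exact word, 6 (betaCOP, ND-B14.7, Vps53, CG11095, fray and CG44002) held an 8-base stretch with 1 mismatch to it, and eEF1gamma was 3 mismatches away. Over the 50 strongest members, 22 held the exact word and 9 a stretch with 1 mismatch as the closest, against 0 and 6 of the 100 flanking windows. At ranks 101 to 500 the share with 1 mismatch was 10.8% at summits and 9.25% in flanks, so a single mismatch is near the level of flanking sequence there. Most members with the word held 1 copy. There were 2 copies at RpL37-1 (35 bp apart) and LSm3 (20 bp apart) and 3 copies at RpL11 (over 30 bp).

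Bases beside the word were shared as well. Among the 26 copies at the 50 strongest members, the base just before the word was T in 20 (76.9%). At positions 6, 5, 4 and 3 before it the leading bases were G, C, G and C, present in 20, 20, 19 and 19 copies. After the word no base passed 14 of the 26 copies (C at position 2). By distance from the summit, 14 copies lay within 25 bp, 12 between 25 and 50 bp and 1 between 50 and 75 bp.

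**Figure D3:**
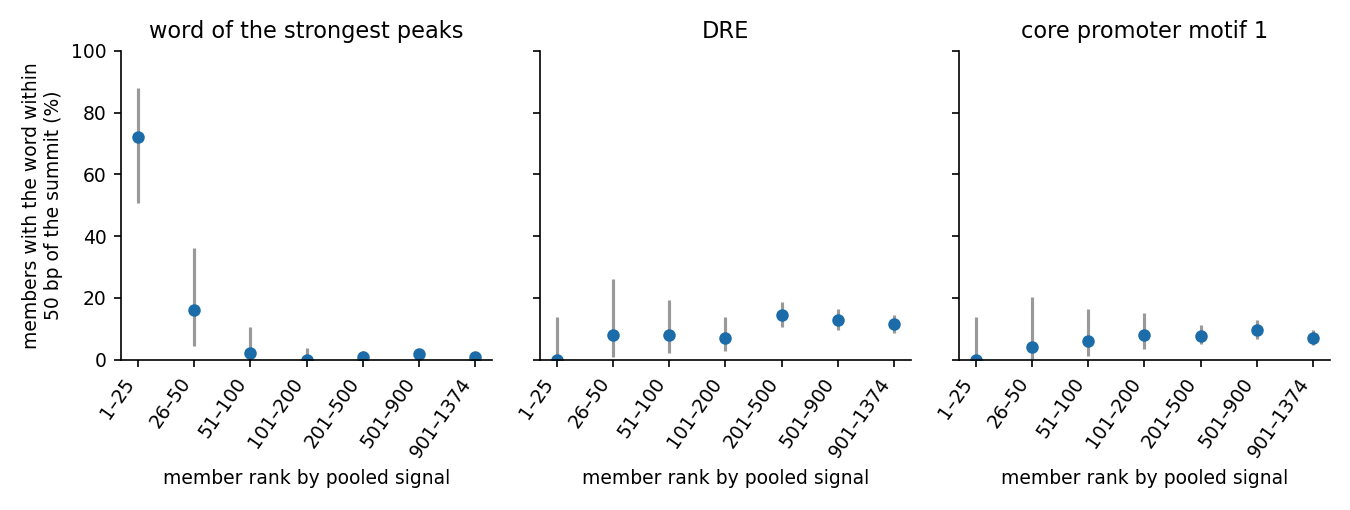
Share of members (%) that hold a word within 50 bp of the summit, by member rank, with 95% binomial intervals, for the word of the strongest peaks (left), the DRE (middle) and motif 1 (right). The first falls to 16.0% at ranks 26 to 50 after 72.0% at ranks 1 to 25, while the DRE and motif 1 are at 0 at ranks 1 to 25 and near 11.4% and 6.96% at the lowest ranks.

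The DRE and motif 1 were not concentrated at the top of the list and were spread over the ranks below it. TATCGATA was present at 161 members (11.7%, 95% interval 10.1 to 13.5%), against 7.94% of all reproducible peaks and 0.655% of the members' flanking windows. It was present at 0 of the 25 strongest members, where the interval reaches 13.7%, and at 14.3% of ranks 201 to 500. GGTCACACT was present at 106 members (7.71%, 95% interval 6.36 to 9.25%), against 4.93% of all reproducible peaks and 0.0364% of flanking windows. It was also at 0 of the 25 strongest, where the interval again reaches 13.7%. For each word that interval contains the share over all members. Members with the DRE had a median relative signal of 0.982 ± 0.0461, against 1.02 ± 0.0246 without it, and those with motif 1 had 0.985 ± 0.0608, against 1.02 ± 0.0220, values that were not tested.

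At each replicate's own summits, TATCGATA was present at 10.7, 11.8 and 11.2% of members in replicates 1, 2 and 3, and in 0.740, 0.851 and 0.925% of flanking windows. The difference was 10.4 ± 0.508 points (exact sign-flip permutation test, two-sided, p = 0.25). GGTCACACT was present at 7.17, 6.43 and 7.69% of members and in 0.222, 0.444 and 0.185% of flanks, a difference of 6.82 ± 0.767 points (exact sign-flip permutation test, two-sided, p = 0.25). For both words every summit value lay above every flank value. The spread covers shifts of the summit only, since the sequence and the peaks are the same in each replicate. Both words were chosen with earlier results of these data known, so the tests add no independent support. Against head-to-head peaks (10.3 ± 0.498%), the DRE share of the members (11.2 ± 0.555%) was higher by 0.862 ± 1.05 points in 2 of 3 replicates (exact sign-flip permutation test, two-sided, p = 0.5), less than the spread. It was 1.35 points without replicate 1, 0.306 without replicate 2 and 0.172 with a head-to-head limit of 500 bp. Motif 1 was at 7.10 ± 0.632% of members, 4.98 ± 0.647% of head-to-head peaks and 2.42 ± 0.418% of internal promoter peaks, values that were not tested.

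Unbound single first promoters had lower shares of these words. The comparison took 7741 outermost TSSs with no divergent partner within 1000 bp and no reproducible summit within 500 bp, with a window of the same length centred 46 bp upstream. AACAGCAC was present at 2.69% of members and 0.336% of unbound promoters, TATCGATA at 11.7% and 2.56%, and GGTCACACT at 7.71% and 0.878%. The member windows follow the summit and the unbound windows a fixed distance, so the shares are descriptions and not a test.

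Of the other words, CANCNCTA, the core of motif 7, was present at 160 members (11.6%, against 9.31% of all reproducible peaks and 2.51% of flanks). The E-box CAGCTG was present at 145 (10.6%, against 8.39% and 3.93%). CAGGGCTG, the word of the insulator protein ZIPIC, was present at 40 (2.91%, against 2.36% and 0.218%). GAGAGAG, the repeat of GAGA factor, had a lower share at summits than in flanks, at 14 members (1.02%, against 1.42% and 2.55%). CAGGTAG, the word of the early embryonic activator Zelda, was present at 4 (0.291%, against 0.472% and 0.546%). None of the 3 words of the printed sequences was present at 1085 members (79.0%), and none of the 8 at 819 (59.6%). A match is only the presence of these letters in the window.

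Several words had a preferred direction along the gene. Of 108 GGTCACACT copies at member summits, 75 ran with the gene (69.4%, 95% interval 59.8 to 77.9%), and over the replicates' own summits the share was 69.0 ± 1.38% (n = 3). Sense copies had a median position of 2 bp past the TSS, and antisense copies of -48 bp. Of 171 CANCNCTA copies, 135 were sense (78.9%, 95% interval 72.1 to 84.8%), with a median position of -11.5 bp, against -52.5 bp for the antisense copies. CAGGGCTG ran the other way, with 8 of 41 copies sense (19.5%, 95% interval 8.82 to 34.9%). AACAGCAC showed no clear direction, with 23 of 41 copies sense (56.1%, 95% interval 39.7 to 71.5%) and medians of -47.5 bp (sense) and -54 bp (antisense). The DRE had a median position of -37.5 bp.

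**Figure D4:**
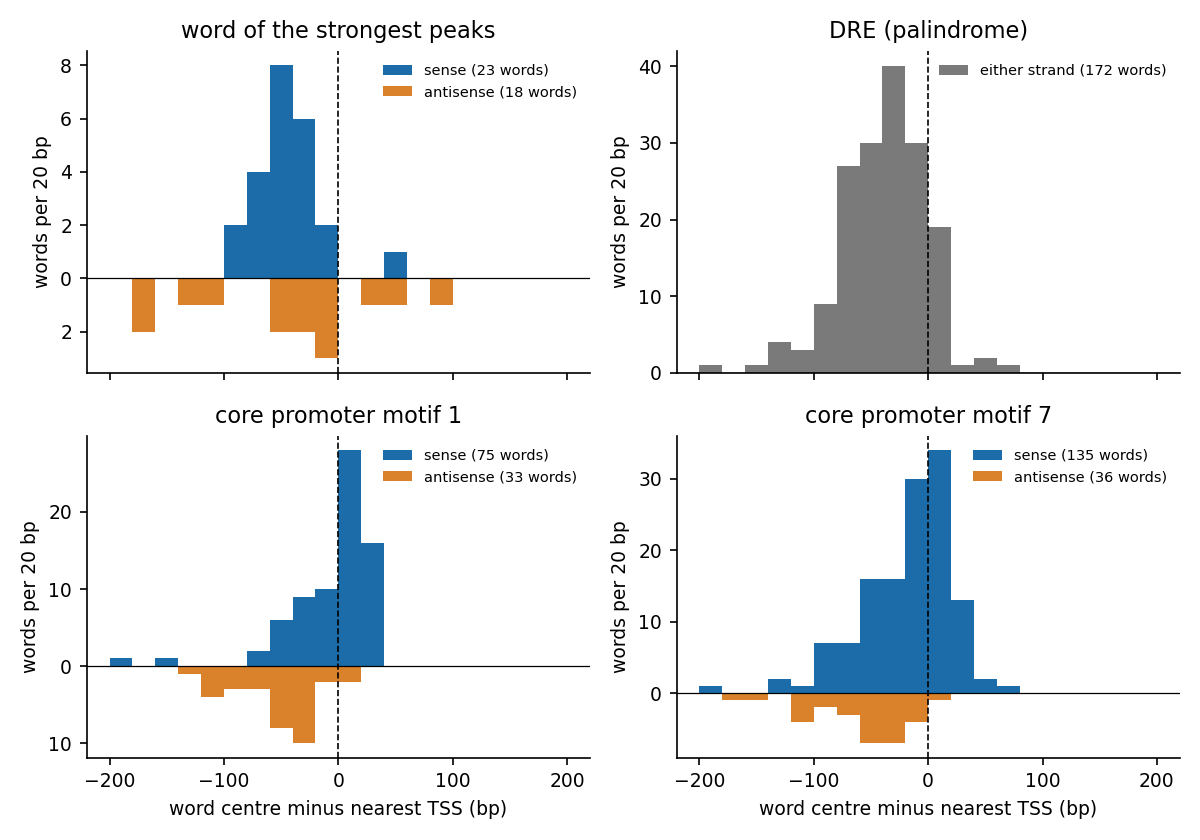
Number of words per 20 bp by position of the word's centre relative to the nearest TSS (bp, within 200 bp), at member summits, with sense copies drawn up and antisense copies down. The panels show the word of the strongest peaks, the DRE, motif 1 and motif 7; sense copies of motif 1 pile up at and just past the TSS (median 2 bp) and its antisense copies upstream (median -48 bp), and 21 of the 492 words lie outside the axis.

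Core promoter elements at the TSS were read at fixed distances on the gene's strand, at the 1343 distinct TSSs of the members and at the 7741 unbound single first promoters. The TATA box TATAAA, starting 40 to 20 bp upstream, was present at 23 member TSSs (1.71%, 95% interval 1.09 to 2.56%) and 810 unbound TSSs (10.5%). The initiator TCAGT, starting within 10 bp of the TSS, was present at 107 (7.97%) and 1362 (17.6%). The TCT element, sought as CTTT with a C or T on each side, was present at 66 member TSSs (4.91%) and 201 unbound TSSs (2.60%). Of the 40 member TSSs of ribosomal protein genes, 24 had it (60.0%, 95% interval 43.3 to 75.1%). No such share was taken for ribosomal protein genes without a member, so this describes the gene family and not the bound promoters. The downstream promoter element (A or G, then G, A or T, C or T, any base but T, then T), starting 24 to 32 bp past the TSS, was present at 5.96% and 7.03%. Whether the unbound genes are expressed in the embryo was not measured.

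Among 19 gene lists, ribosomal protein genes had the largest share with a member. Members were nearest to 9.55% of all 13945 coding genes. Of 93 cytoplasmic ribosomal protein genes, 39 had one (41.9%, 95% interval 31.8 to 52.6%), in 42 peaks. Over the strongest member of each of these genes, the median relative signal was 1.28. RpL11, RpL37-1, RpL35A and RpL24 were the strongest. Of the 42 peaks, 5 held AACAGCAC, 7 the DRE and 3 motif 1. Over all members the shares were 2.69%, 11.7% and 7.71%. Of the mitochondrial ribosomal protein genes, 4 of 73 had a member (5.48%, 95% interval 1.51 to 13.4%), led by mRpL41 (relative signal 2.47 ± 0.265). That interval contains 9.55%. A further 18 of the 73 had a head-to-head peak and no member, as did 24 of the 93 cytoplasmic ones. Translation initiation and elongation factors had 17 of 52 (32.7%, 95% interval 20.3 to 47.1%), with eEF1gamma far above eIF6 (2.78 ± 0.463), eIF3c (2.13 ± 0.273, or 1.82 ± 0.912 at the nearest summits) and eIF2A (1.63 ± 0.213).

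Replication and mitosis genes had 10 of 29 (34.5%, 95% interval 17.9 to 54.3%). They were led by PCNA, the sliding clamp of DNA polymerase (2.85 ± 0.650), the mitotic kinase polo (2.32 ± 0.483), CycB3 (1.90 ± 0.382) and CycB (1.23 ± 0.206). The DRE was at 3 of the 10 peaks, PCNA among them, against 11.7% of all members. Insulator and promoter factor genes had 6 of 16 (37.5%, 95% interval 15.2 to 64.6%). The strongest was pita, which encodes an insulator zinc finger protein (4.35 ± 0.704), followed by BEAF-32 (1.14 ± 0.425), CTCF (1.08 ± 0.146) and ZIPIC (0.751 ± 0.232). BEAF-32 and CTCF differed by less than their spread.

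Other lists had shares with a member nearer to that of all coding genes. These shares count every gene of a list, and a gene with a head-to-head peak but no member counts as without. Such genes were 23 of 86 in membrane traffic, 14 of 87 in oxidative phosphorylation, 11 of 34 aminoacyl-tRNA synthetases and 8 of 40 Mediator subunits and TAFs. They were 4 of 32 heat shock and chaperone genes and 4 of 33 vacuolar ATPase subunits. Membrane traffic genes had 12 of 86 (14.0%), led by betaCOP and Vps53 and then Sec61beta, of the protein translocon, at 1.54 ± 0.321. Oxidative phosphorylation subunits had 12 of 87 (13.8%), with ATPsynC at 1.87 ± 0.191 after ND-B14.7. Heat shock and chaperone genes had 5 of 32 (15.6%), led by Hsp83, the fly Hsp90 (3.04 ± 0.580), and Hsp27 (2.03 ± 0.342). Vacuolar ATPase subunits had 4 of 33 (12.1%), nuclear pore and envelope genes 3 of 27 (11.1%), SAGA subunits 2 of 19 (10.5%), centriole genes 2 of 12 (16.7%), aminoacyl-tRNA synthetases 3 of 34 (8.82%), Mediator subunits and TAFs 3 of 40 (7.50%) and proteasome subunits 2 of 48 (4.17%). The wide intervals of these lists all contain 9.55%.

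No segmentation or Hox gene had a member. The 22 segmentation genes and the 8 Hox genes had 0 members, where the 95% intervals reach 15.4% and 36.9%. The 179 chemosensory receptor genes also had 0, where the interval reaches 2.04%, below the share of all genes. Mesoderm and muscle genes had 4 of 17 (23.5%, 95% interval 6.81 to 49.9%). These were how, an RNA-binding protein gene (1.59 ± 0.203), the heart gene tin (0.990 ± 0.254), Mef2 (0.848 ± 0.168) and sls, which encodes fly titin (0.754 ± 0.0543), none far above the median shared peak.

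**Figure D5:**
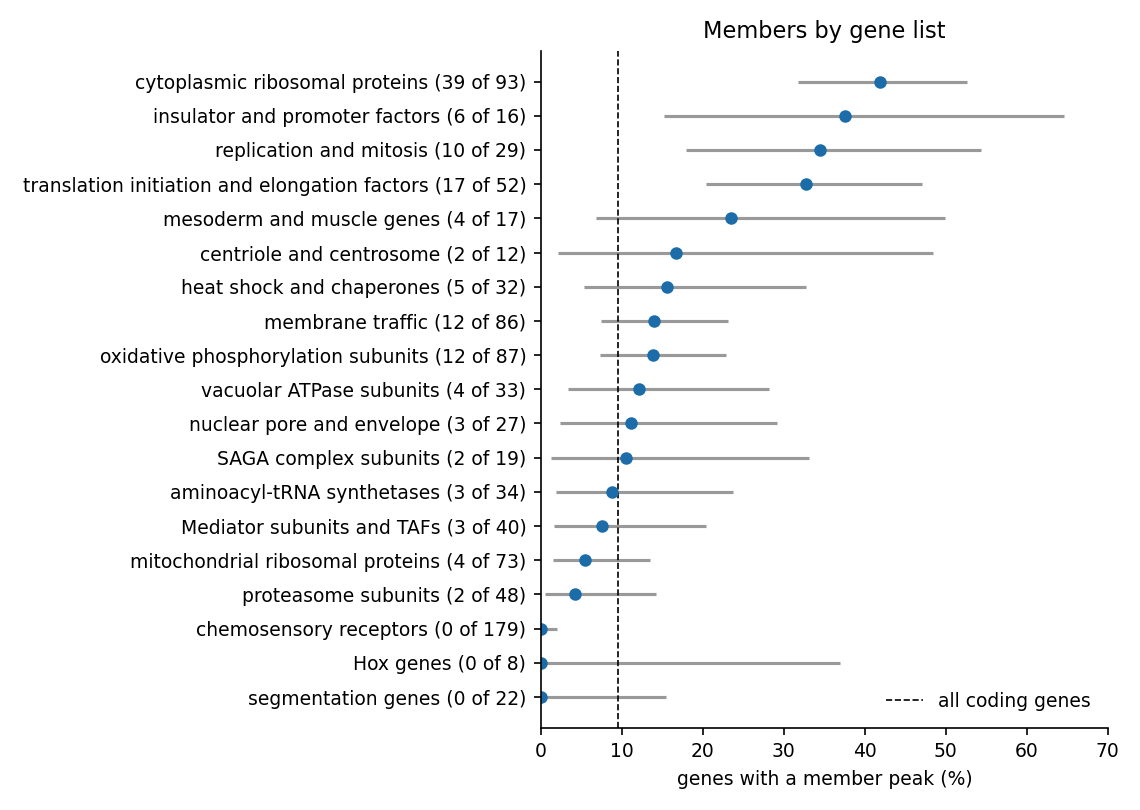
Share of the genes of each list (%) that are nearest to a member, with 95% binomial intervals; the dashed line is the 9.55% of all coding genes. Ribosomal protein genes stand highest at 41.9%, and chemosensory receptor, Hox and segmentation genes are at 0.

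The genes at members had a median length of 3806 bp (quartiles 1872 and 8459 bp), against 1929 bp (1036 and 4901 bp) for genes at unbound single first promoters. A single annotated TSS was found at 61.9% against 78.2% of these genes, and a single exon at 5.78% against 18.7%. Genes at head-to-head peaks had a median length of 2758 bp, with 59.4% at 1 TSS. Members were found on every arm at similar rates. They were 36.5% of the peaks on X, 33.7% on 2L, 37.5% on 2R, 35.2% on 3L, 36.8% on 3R and 7 of 19 on chromosome 4. Per 1000 coding genes the count was highest on X (116) and lowest on 2L (86.2). Of the 50 strongest members, 16 were on X and 13 on 3R, arms with 18.6% and 24.7% of all members, and each held 12 of the 37 members with AACAGCAC.

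Where a gene had more than 1 member, the rule itself kept the peaks near its first promoter, so their closeness is built in. There were 42 such genes, with summits from 199 bp (CG10011 and Atf-2) to 759 bp (Sik3) apart. The 2 summits at CG44002 (pooled signal 4166 and 311) were 208 bp apart, those at Gmppa (3629 and 1496) 218 bp and those at anox (2402 and 2166) 200 bp. At all 3 genes both summits share an interval and replicate peaks, so their replicate values are not separate measurements, and this holds for 68 members in all 3 replicates. With the nearest summits the weaker CG44002 summit had a relative signal of 2.65 ± 2.03, the weaker Gmppa summit 10.8 ± 1.13 and the anox summits 15.3 ± 0.646 and 14.2 ± 1.08. At anox, SLIRP1 was equally near.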

How the data were processed

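ChIP-seq peak lists of CG17186-GFP embryos (3 biological replicates, 1 group) were analysed. Per the read-me tables deposited with the samples, the authors called relaxed peak lists on each replicate and on the pooled reads against a control, and thresholded them with the irreproducible discovery rate procedure; positions are dm6. The deposited column 7 is the caller's signal, an arbitrary score, and column 9 the −log10 q-value, which was only described. For aligner, caller, versions and threshold: not given in the sources used here.

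Start sites came from Ensembl release 115 (19607 coding TSSs, 13945 coding genes) and sequence from the RefSeq Release 6 assembly (dm6). Peaks were matched to replicate lists by an overlap of at least 1 bp, taking the strongest overlapping peak. Shares carry exact Clopper-Pearson 95% intervals, which cover counting error only. The tests were exact sign-flip permutation tests over the 3 replicates, without adjustment since none could pass 0.05. Scripts used Python 3.11.15, numpy 2.4.6, pandas 2.3.3, scipy 1.17.1 and matplotlib 3.10.9 and were tested on simulated peaks.

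Named genes are the 25 strongest members, up to 4 per list, those at the limits of the rule, the 3 weakest, and the 5 most and 5 least variable of the 100 strongest. Sequences are the strongest members with each word outside 2R. Genes with several members and tied genes were named after their values were seen. The members, lists and words were chosen with earlier results of these data known. Alternatives varied the distances, peak strength, summits, word window, flanks, overlap, scaling and replicates. The dm3 lists were not used.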

Additional observations from a re-analysis of the deposited data

How the results depend on the processing

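Of 123 alternative values, 108 kept their direction and, for shares and counts, stayed within their interval or within 1.5 times, while 13 moved and 2 turned. Differences were read by direction only, and 13 of those that kept it grew or shrank by over 1.5 times, among them the difference in signal from internal promoter peaks (0.00670 among the stronger 50% of peaks, against 0.0392). Keeping the stronger 50% of peaks left 714 members, with 83.8% of summits upstream, AACAGCAC at 4.48% and 95.5% among the strongest peaks of every replicate. A promoter distance of 250 bp, which also frees peaks from the head-to-head class, raised the share with AACAGCAC among the 100 strongest members to 33.0%, against 23.0%. The difference in AACAGCAC between members and head-to-head peaks turned to 0.392 points there and to 0.105 points with a head-to-head limit of 500 bp; the cause was not tested. Taking each replicate's own strongest peaks gave an upstream share of 77.9% (replicate 1) and 71.5% (replicate 3), a median offset of -58 bp (replicate 2) and -38 bp (replicate 3), and motif 1 at 5.52% (replicate 2). A word window of 100 bp raised the DRE to 17.6% and motif 1 to 11.6%. Requiring 50% reciprocal overlap left 53.7% of members among the strongest peaks of every replicate. Leaving out each replicate in turn turned no difference, but moved that in signal from head-to-head peaks to between -0.0225 (without replicate 2) and -0.0727 (without replicate 3), and that in the DRE to between 0.306 (without replicate 2) and 1.35 points (without replicate 1). No paired analysis was possible because there is 1 group and nothing to pair across groups; each difference was taken within a replicate. One summit per shared interval (1368 members), chosen after seeing the data, moved no share beyond its interval. Taking the replicate peak with the nearest summit, likewise added, turned the mean of none of the 8 differences taken within replicates. For signal from head-to-head peaks it left -0.0246, against -0.0510, no longer negative in all 3 replicates. With no read counts, depth limits are unknown.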

Other observations

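Words of 8 bases that stood out at member summits were ranked on one set of arms and counted on the other. Among all members, TATCGATA came first both ways: it was found at 11.3% of the 764 members on 2L, 2R and X and at 12.3% of the 610 members on 3L, 3R and 4, against 0.524% and 0.820% of their flanking windows. Words of motif 1 followed, with GGTCACAC at 5.89% and 7.70%. AACAGCAC was not among the 8 leading words of all members in either direction.

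The same count was made over the 1085 members with none of AACAGCAC, TATCGATA and GGTCACACT. AATCGATA, 1 base from the DRE, led on both sets of arms, at 5.22% of 613 members (flanks 0.326%) and 4.87% of 472 (flanks 0.424%). TGGTATTT, which is none of the 8 words searched, was at 3.59% and 3.60% of these members, against 0.326% and 0.212% of flanks. CAGCACTG was among the leading words where 2L, 2R and X were ranked, at 3.10%, and was at 2.12% on the other arms (flanks 0.424%). These are shares of members, with no test.

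The density of TATCGATA fell with distance from the summit, with 102 words within 25 bp, 85 between 25 and 50 bp, 44 between 50 and 75 bp and 10 between 225 and 250 bp over all members. GGTCACACT had 54, 59, 36 and 3 words in the same bins. In each replicate's own strongest peaks, read as a separate list, the single first promoters held 1369, 1286 and 1398 peaks, with the DRE at 10.5, 10.7 and 10.7% of them and AACAGCAC at 22, 19 and 21 of the 100 strongest.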
